A study of Mus musculus with 40 samples.

Results

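Potassium channel genes were followed through 40 RNA libraries of mouse striatum. They were taken as the rows of the count table whose symbol starts with Kcn, leaving out the glial inward rectifier genes Kcnj10, Kcnj16 and Kcnj8. This gave 94 of 24060 rows, of which 82 had 10 or more counts in at least 4 libraries. RNA was measured in 10 groups of 4 libraries each. In RiboTag mice, a virus (AAV) drives the ribosomal protein Rpl22 with an HA tag in one cell type, so that immunoprecipitation (IP) with anti-HA yields RNA on the ribosomes of those cells, while the input is RNA of the whole lysate. The astrocyte cohort (input and IP of the same 4 C57/BL6NTac mice, labelled Control) is taken here as GfaABC1D-Rpl22-HA, because its labels do not name the virus. The neuron cohort (C57/BL6NTac WT) carried hSYN1-Rpl22-HA, and its inputs and IPs are labelled with different animals. Both were injected in the dorsal striatum at 6 weeks of age. The SAPAP3 cohort comprised C57/BL6J WT mice and mice lacking Dlgap3, which encodes the postsynaptic scaffold SAPAP3 (strain C57/BL6J-Dlgap3 KO, a single targeted line), with input and IP of each. The methods give 4.5 months as the age at injection for the KO mice, and the age of the WT mice is not given in the sources used here. Neither the labels nor the methods name the cell type of its IP. The remaining 8 libraries were bulk striatum of WT and SAPAP3 KO mice, labelled C57/BL6NTac for both genotypes, with WT 1 and KO 1 carrying the same animal label. Viral tagging reaches cells near the injection, and bulk and input RNA mixes all cells, so that fewer cells of a type and less RNA per cell cannot be told apart in it.

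Potassium channels let K+ leave or enter cells down its gradient and thereby set the resting potential, shape the action potential and limit firing. Voltage-gated (Kv) channels open on depolarization, inward rectifiers (Kir) pass current best near rest, two-pore-domain (K2P) channels leak, and ion-activated channels respond to Ca2+ or Na+. Striatal projection neurons are known for strong inward rectification and A-type and M-type Kv currents, and astrocytes for a very high resting K+ conductance that clears K+ released by active neurons.

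By role, the genes comprised 30 Kv pore genes (28 with enough counts), 10 genes of modifier subunits that form channels only with other Kv subunits (9), and 12 of Kv auxiliary subunits (10). There were 8 ion-activated pore genes (8), 4 auxiliary subunits of the BK channel (3), 12 inward rectifiers (10), 14 K2P genes (11) and 4 other rows, such as RNAs from the opposite strand (3). Translated RefSeq coding sequences (GRCm38.p6) were searched for the selectivity filter, the stretch of pore that strips water from K+. It was written as threonine or serine, then valine, isoleucine, threonine, leucine, serine or methionine, then glycine, then tyrosine, phenylalanine or leucine, then glycine. This pattern occurred 1 time in 29 of 30 Kv pore genes, in 10 of 10 modifiers, in 12 of 12 inward rectifiers and in 8 of 8 ion-activated genes. Kcnh2 had 2 matches, 1 with a leucine codon and 1 with a phenylalanine codon like the other Kcnh genes. A match to the pattern alone does not show a second filter. The pattern occurred 2 times in each of 14 K2P genes and in none of the 12 Kv auxiliary and 4 BK auxiliary genes. The runs below show the filters of genes that stood at opposite ends of the comparisons, 5′ to 3′ on the coding strand, with the codons of the glycine, aromatic or leucine residue and second glycine in capitals.
Kcnj14 (chr7:45819627-45819650, minus strand): acgtccataGGCTATGGTgtgcgc
Kcnj4 (chr15:79485361-79485384, minus strand): acgaccattGGCTACGGGttccgg
Kcnj6 (chr16:94832771-94832794, minus strand): accaccatcGGTTATGGCtaccgg
Kcnh3 (chr15:99232926-99232949, plus strand): accagtgtgGGCTTCGGCaacgtg
Kcnk10, first pore (spans an exon junction): acaaccataGGGTATGGGaatatt
Kcnk10, second pore (chr12:98440599-98440622, minus strand): accacagtaGGCTTTGGTgatttt
Kcnk1, first pore (spans an exon junction): tccaccacaGGCTATGGCcacacg
Kcnk1, second pore (chr8:126025326-126025349, plus strand): agcaccatcGGCCTGGGGgactat
Kcnk6, first pore (spans an exon junction): accaccgtgGGCTATGGCtacacg
Kcnk6, second pore (chr7:29225530-29225553, minus strand): tccaccattGGCCTAGGGgactac
Among the runs shown, the Kir genes and the first pores of the K2P genes carry the tyrosine codon, Kcnh3 and the second pore of Kcnk10 a phenylalanine codon, and the second pores of Kcnk1 and Kcnk6 a leucine codon.

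Library totals ranged from 23438112 to 84109800 counts. The 10 astrocyte markers were all called higher in the astrocyte IP and in both SAPAP3-cohort IPs than in their inputs, so the SAPAP3-cohort IPs carried astrocyte RNA, and 1 of 10 was called lower in the neuron IP. Of 9 neuron markers, 3 were called higher in the neuron IP and 2 lower in the astrocyte IP. They summed to 4412.7 to 4687.2 CPM in the astrocyte IPs against 5642.4 to 6015.4 in their inputs. A level in the astrocyte IP is therefore not a level in astrocytes alone. Interneuron markers also moved, with 7 of 8 called higher in the astrocyte IP (summed 1220.9 to 1368.2 CPM, counts scaled to library size, against 246 to 254 in input) and 6 of 8 in the SAPAP3-cohort WT IP. Microglial markers summed to 605 to 749 CPM in astrocyte inputs and 17.4 to 23.4 in the IPs. Oligodendrocyte markers, 3 of 8, were called higher in the SAPAP3-cohort IP of each genotype. In WT they summed to 7556.3 to 11155.4 CPM in the IPs and 5344.2 to 6264.2 in the inputs. The part of these other cell types in the results on potassium channel genes was not tested. Xist was at 0 to 0.0363 CPM in astrocyte-cohort inputs and at 172 to 259 in neuron-cohort inputs, whereas Ddx3y was at 56.3 to 73.0 and at 0, so sex, cohort and cell type cannot be told apart between these cohorts. A list of 8 genes of cortical excitatory neurons, drawn up after the data were seen, summed to 96.6 to 130 CPM in astrocyte-cohort inputs and 733 to 997 in neuron-cohort inputs. In the SAPAP3 cohort it was at 98.0 CPM in WT input 1 and at 622 to 781 in the other WT inputs, and WT replicate 1 is therefore also left out below where a result rests on it.

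Levels are given as FPKM (counts scaled to merged exon length and to library size after TMM). Summed over the 94 genes they came to 887 ± 21.1 (SD, n = 4) in astrocyte-cohort input, 680 ± 4.45 in astrocyte IP, 857 ± 29.0 in neuron-cohort input and 1143.3 ± 43.8 in neuron IP. Kcnab1, which encodes a cytosolic β subunit of Kv1 channels, had the highest mean level in both IPs. It was at 74.6 ± 8.15 FPKM in astrocyte IP, against 109 ± 6.91 in the input, and at 132 ± 13.3 in neuron IP. Kcnk1, the K2P gene TWIK-1, ranked 2nd in astrocyte IP at 66.7 ± 3.74 FPKM, within the spread of Kcnab1, and 10th in neuron IP at 39.3 ± 1.80. Next in astrocyte IP came the A-type Kv pore gene Kcnd2 at 41.2 ± 1.01 and the Kv auxiliary gene Kcne1l at 31.3 ± 3.83, which did not differ beyond its spread from Kcnip2 at 30.5 ± 2.15. In neuron IP, Kcnip2, whose product KChIP2 binds Kv4 channels, came 2nd at 90.0 ± 3.26 FPKM and Kcnd2 3rd at 66.0 ± 3.69. The places below, held by the modifier gene Kcnf1 (51.0 ± 4.79), Kcnab2 (46.8 ± 4.70), Kcna1 (46.7 ± 4.34), Kcnh3 (46.0 ± 4.07) and Kcnj4 (45.9 ± 1.51), overlapped in their spread. K2P genes made up 12.7 to 14.1% of the summed level in astrocyte IP libraries, against 6.65 to 6.89% in their inputs and 5.90 to 6.21% in neuron IP. Kcnk1 alone had a mean of 66.7 of the 91.7 FPKM summed over K2P genes in astrocyte IP, and 26.4 of 60.1 in the inputs. The median log2 fold change of the 11 K2P genes tested in astrocyte IP over input was -0.11. At most 27 of 94 genes in either IP exceeded a mean of 10 FPKM, and 33 in astrocyte IP and 34 in neuron IP were under 1 FPKM.

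**Figure D1:**
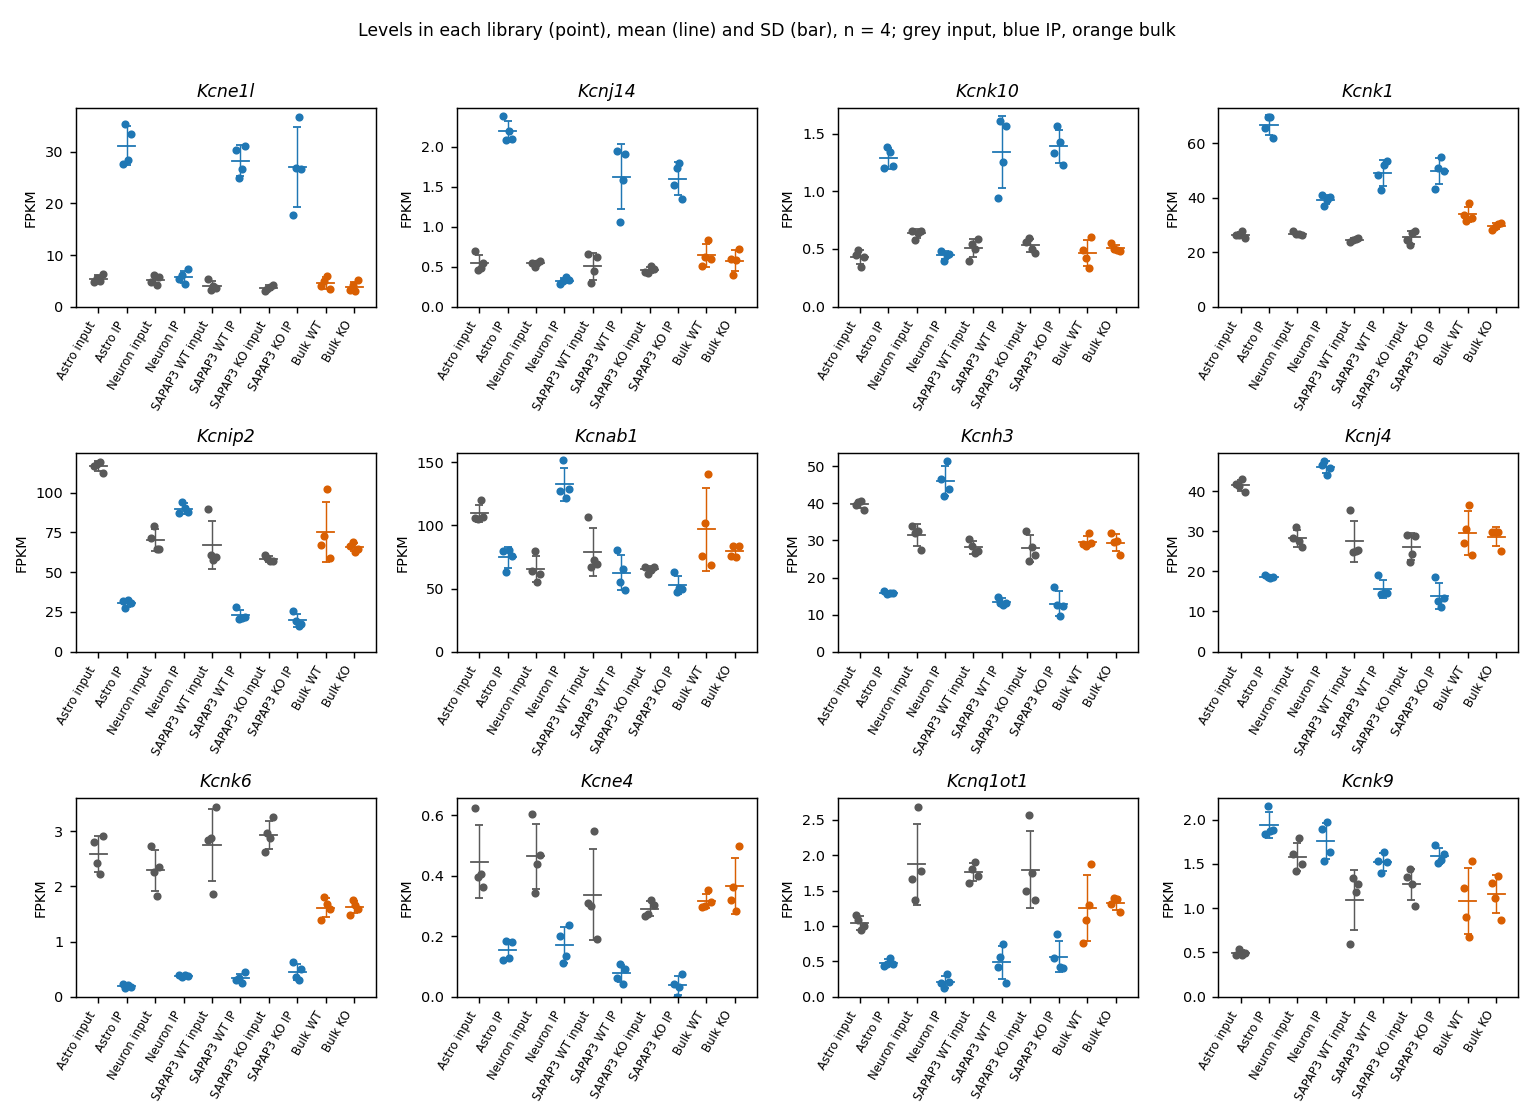
Level in FPKM (y axis, from 0) of 12 potassium channel genes in each of the 40 libraries, by group (x axis). Points are libraries, lines means and bars SD (n = 4), in grey for input, blue for IP and orange for bulk striatum. Kcne1l reaches 27.6 to 35.4 in astrocyte IP and at most 7.22 in neuron IP, while Kcnip2 is lower in astrocyte IP than in any input or bulk library.

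The first comparison asked which potassium channel transcripts were over- or under-represented on astrocyte ribosomes relative to whole striatum. Of 79 genes tested in astrocyte IP over input, 8 were called higher and 14 lower (adjusted p under 0.05 and log2 fold change past 1), where 13.5% of all genes were called higher and 13.2% lower. The median log2 fold change was -0.27, against -0.02 over all genes. The highest fold change was that of Kcne1l, an older symbol of Kcne5, a single-pass auxiliary subunit that inhibits Kv channels. Its level was 4.69, 5.62, 5.02 and 6.34 FPKM in the inputs and 27.6, 35.4, 28.4 and 33.5 in the IPs. No IP library overlapped an input, and the log2 fold change was 2.46 ± 0.11 (SE; adjusted p = 1.8e-09). Kcnj14, the inward rectifier Kir2.4, stood at 0.691, 0.460, 0.489 and 0.549 FPKM in the inputs and 2.38, 2.09, 2.20 and 2.10 in the IPs. Its log2 fold change was 1.93 ± 0.13 (adjusted p = 1e-07). An interval on chromosome 1 (10805274 to 10807674) matched 91.1% of its sequence at 99.0% identity, so reads of Kcnj14 could be split or discarded and its values are uncertain.

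K2P genes provided 3 of the 8 calls. Kcnk1 stood at 26.4, 26.4, 27.6 and 25.2 FPKM in the inputs and 65.6, 69.7, 69.7 and 61.9 in the IPs, a log2 fold change of 1.26 ± 0.044 (adjusted p = 3e-10). Kcnk10, the stretch- and lipid-sensitive TREK-2, stood at 0.444, 0.491, 0.342 and 0.433 in the inputs and 1.20, 1.38, 1.34 and 1.22 in the IPs, a log2 fold change of 1.52 ± 0.10 (adjusted p = 7.7e-08). Kcnk9, the acid-sensitive TASK-3, had a log2 fold change of 1.89 ± 0.071 (0.474 to 0.539 FPKM in the inputs, 1.84 to 2.16 in the IPs). In all 3 genes the groups were apart. The other called genes were the Kv modifier Kcng4 (2.02 ± 0.16), the Kv3 pore gene Kcnc4 (1.00 ± 0.11) and Kcnmb1, the BK β1 subunit known from smooth muscle (1.54 ± 0.33). Kcnmb1 was under 0.6 FPKM in every IP library, and Kcnc4 lay at the fold limit. Of the 8 cortical markers, 2 were also called higher in astrocyte IP over input (sums of 102 to 324 CPM against 96.6 to 130). Astrocyte IP 2 had the highest cortical sum and the highest IP levels of Kcng4 (3.21 FPKM), Kcnc4 (3.22) and Kcnk9 (2.16). These 3 genes were not called in either SAPAP3-cohort IP, and the part of cortical RNA in their calls was not tested.

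The lowest fold change was that of Kcnk6, the K2P gene TWIK-2, with 2.81, 2.42, 2.22 and 2.92 FPKM in the inputs and 0.232, 0.166, 0.208 and 0.171 in the IPs. The groups were far apart, with a log2 fold change of -3.80 ± 0.14 (adjusted p = 5.4e-10), so the related TWIK genes Kcnk1 and Kcnk6 lay on opposite sides. Kcnip2 went from 117, 118, 119 and 112 FPKM in input to 31.8, 27.4, 32.2 and 30.6 in IP (log2 fold change -2.01 ± 0.052, adjusted p = 3.2e-11). The Elk-type Kv pore genes Kcnh4 (-1.46 ± 0.063) and Kcnh3 (-1.40 ± 0.035), the Na+-activated Kcnt1 (-1.38 ± 0.049), and the strong inward rectifier Kcnj4 (Kir2.3; -1.22 ± 0.034) followed. Kcnj4 stood at 41.7, 41.3, 43.1 and 39.8 FPKM in the inputs and 19.2, 18.6, 18.4 and 18.5 in the IPs, with no overlap. Also called lower were the modifier Kcng2 (-1.35), the Kv1 gene Kcna5 (-1.14), the ATP-sensitive Kcnj11 (-1.05), the M-current gene Kcnq5 (-1.03) and the BK β4 gene Kcnmb4 (-1.02). The last 3 calls were Kcne4, an auxiliary Kv subunit (-1.61 ± 0.25), and 2 RNAs from the strand opposite a channel gene, Kcnd3os (-2.29 ± 0.28) and Kcnq1ot1 (-1.20 ± 0.079), a nuclear RNA that silences the imprinted region around Kcnq1. Whether counting used strand is not stated, so reads of Kcnd3os, which overlaps Kcnd3 over 15.1% of its exons, cannot be assigned with certainty.

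Of the widely expressed Kv genes that did not reach the fold limit, Kcnd2 was at -0.57 ± 0.037, Kcna4 at -0.57 ± 0.049 and Kcna1 at -0.51 ± 0.055. In these 3 genes all IP libraries were below all inputs. Kcna2 (0.26 ± 0.033), Kcnc1 (0.16 ± 0.043) and Kcnd3 (0.36 ± 0.037), which encode Kv1, Kv3 and Kv4 pores, lay above 0 with no overlap. The Ca2+-activated SK genes Kcnn2 (0.97 ± 0.068) and Kcnn3 (0.84 ± 0.041) were higher in every IP library than in any input but under the fold limit, whereas Kcnn1 (-0.03 ± 0.078) and the BK pore gene Kcnma1 (-0.14 ± 0.050) had overlapping groups. The strong inward rectifier Kcnj2 (Kir2.1) was at -0.97 ± 0.11.

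**Figure D2:**
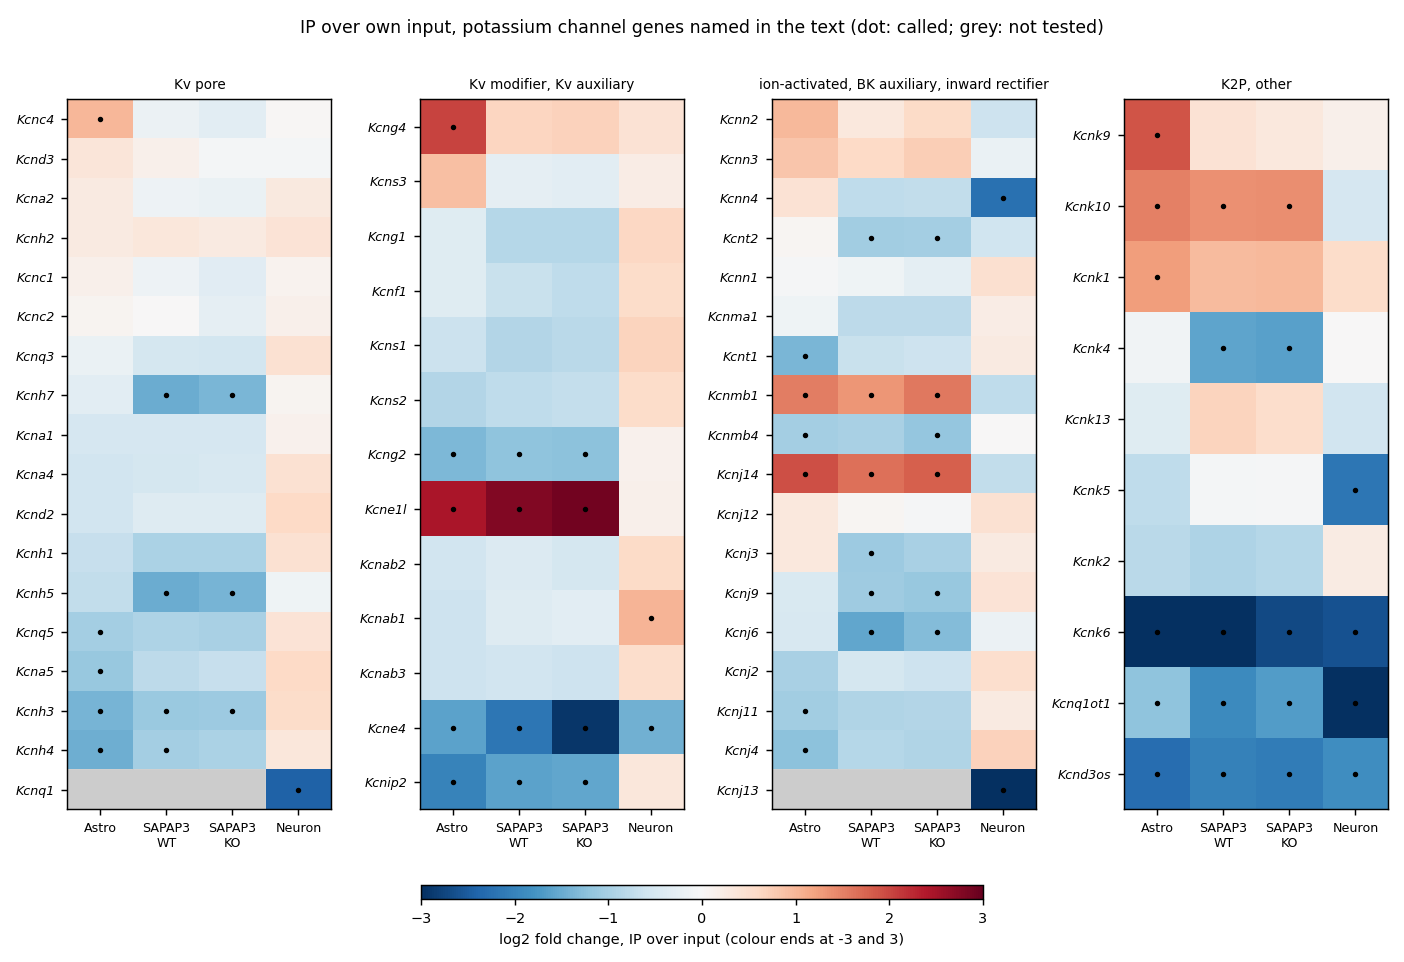
Log2 fold change of IP over own input (colour, ends at -3 and 3) for the potassium channel genes named in the text, by class, with the astrocyte, SAPAP3-cohort WT, SAPAP3-cohort KO and neuron IPs as columns. Dots mark calls and grey cells genes not tested. Kcne1l, Kcnj14, Kcnk10 and Kcnmb1 are called higher in the first 3 columns, and Kcnk6, Kcne4, Kcnd3os and Kcnq1ot1 lower in all 4. Kcne4 and Kcnd3os had few counts in the SAPAP3-cohort IPs.

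In the SAPAP3 cohort, 4 of 79 genes were called higher and 15 lower in WT IP over input (11% and 12% of all genes), and 4 and 15 of 78 in KO IP over input (12.3% and 11.4%). The median log2 fold changes were -0.53 in WT and -0.61 in KO, against -0.03 and 0 over all genes. The 4 higher genes were Kcne1l, Kcnj14, Kcnk10 and Kcnmb1 in both genotypes, and these 4 were also among the 8 of the astrocyte IP. Kcne1l stood at 5.41, 3.29, 3.91 and 3.57 FPKM in WT inputs and 30.3, 24.9, 26.7 and 31.2 in WT IPs, and at 3.06, 3.48, 3.72 and 4.28 in KO inputs and 17.8, 26.8, 36.8 and 26.6 in KO IPs. Its log2 fold changes were 2.77 ± 0.16 (adjusted p = 8.5e-07) and 2.90 ± 0.20 (adjusted p = 4.5e-07), with no overlap of input and IP in either genotype. Kcnj14 was at 1.66 ± 0.28 and 1.80 ± 0.15, Kcnk10 at 1.36 ± 0.18 and 1.39 ± 0.10, and Kcnmb1 at 1.33 ± 0.27 and 1.59 ± 0.22 in WT and KO. Kcnk1, which was called in the astrocyte IP, was at 0.96 ± 0.074 and 0.97 ± 0.087, just under the limit, with IPs of 42.8 to 53.3 FPKM in WT and 43.2 to 54.8 in KO and no overlap with their inputs.

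Lower in the astrocyte IP and in both SAPAP3-cohort IPs were 7 genes, Kcnk6, Kcnd3os, Kcnq1ot1, Kcne4, Kcnip2, Kcnh3 and Kcng2. Of these, Kcne4 and Kcnd3os were poorly covered and entered the SAPAP3-cohort tests through their inputs. Kcne4 had 21 to 28 counts in KO inputs and 0 to 7 in KO IPs, and Kcnd3os 16 to 32 in WT inputs and 6 to 10 in WT IPs. Genes that enter in this way can hardly be called higher. Kcnk6 was at -3.08 ± 0.22 in WT and -2.71 ± 0.20 in KO, and Kcnip2 at -1.60 ± 0.17 and -1.57 ± 0.12. A further 6 genes were called lower in both genotypes of the SAPAP3 cohort and not in the astrocyte IP. They were the G-protein-gated inward rectifiers Kcnj6 and Kcnj9 (GIRK2 and GIRK3), the mechanosensitive K2P gene Kcnk4 (TRAAK), the Na+-activated Kcnt2, and the Eag- and Erg-type Kv genes Kcnh5 and Kcnh7. Kcnj6 stood at 0.403, 1.72, 1.39 and 1.54 FPKM in WT inputs and 0.232, 0.554, 0.474 and 0.506 in WT IPs. Input 1 lay below 3 of the IPs, while the other inputs lay above all of them, and the log2 fold change was -1.56 ± 0.40 (adjusted p = 0.0067). The cortical markers, of which 3 of 8 were called lower in the same WT comparison and 7 of 8 in KO, summed to 39.5 to 279 CPM in WT IPs. Without WT replicate 1, 4 genes were called higher and 17 lower in WT, against 1741 and 1572 of all 15194 genes.

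The neuron IP differed from its input by less. Of 80 genes, 1 was called higher and 8 lower (0.464% and 15.5% of all genes), with a median log2 fold change of 0.23 against 0. The gene called higher was Kcnab1, with 64.0, 79.7, 55.5 and 61.9 FPKM in the inputs and 127, 152, 122 and 129 in the IPs. The groups did not overlap, and its log2 fold change of 1.01 ± 0.11 (adjusted p = 1.5e-05) lay at the limit. Smaller differences with no overlap were found for Kcnj4 (0.69 ± 0.053), Kcng1 (0.63 ± 0.093), Kcnd2 (0.60 ± 0.061), Kcnab2 (0.57 ± 0.073), Kcnh3 (0.54 ± 0.077), Kcnf1 (0.54 ± 0.080) and Kcnk1 (0.54 ± 0.039). The M-current genes Kcnq5 (0.42 ± 0.043) and Kcnq3 (0.45 ± 0.052) were likewise higher in each IP than in each input. The neuron marker genes had a median log2 fold change of 0.60 in the same comparison. With any 1 library removed, 0 to 1 genes were called higher.

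Among the 8 lower genes, Kcnk6 (-2.61 ± 0.12), Kcnq1ot1 (-3.15 ± 0.30), Kcnd3os (-1.86 ± 0.18) and Kcne4 (-1.45 ± 0.27) were those also lower in the other 3 IPs. Kcnk6 stood at 2.73, 2.27, 1.82 and 2.36 FPKM in neuron-cohort inputs and 0.391, 0.361, 0.386 and 0.379 in the IPs. Microglial markers, 8 of 8, and endothelial and mural markers, 7 or 8 of 10, were likewise called lower in each of the 4 IPs. Of the same 10 endothelial and mural markers, 1 to 3 were called higher in each IP. The part of these cell types in the result was not tested. Kcnn4 (KCa3.1, -2.24 ± 0.40) and the K2P gene Kcnk5 (TASK-2, -2.17 ± 0.22) were called lower in the neuron IP and in no other IP. The poorly covered Kcnq1 (-2.43 ± 0.42) and Kcnj13 (-3.33 ± 0.70) were called lower in the neuron IP and had too few counts to be tested in the other 3. They entered the test through the neuron-cohort inputs, with 16 to 42 and 14 to 60 counts against 4 to 8 and 0 to 10 in the IPs. Kcnj13, which is known from the choroid plexus, did not exceed 0.355 FPKM in any of these libraries, and Kcnq1 did not exceed 0.213. In the neuron IP 8 of 8 oligodendrocyte and 4 of 4 oligodendrocyte precursor markers were called lower too, against 0 or 1 in the other IPs. In the SAPAP3-cohort IPs, 3 of 8 oligodendrocyte markers in each genotype and 2 of 4 precursor markers in KO were called higher. The part of these cells in the calls was not tested.

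To ask which genes differed between the astrocyte and neuron cohorts, the IPs were compared directly, and the 2 enrichments were then compared in an interaction model in which each IP is set against its own input. Between the IPs, 25 of 79 genes were higher in neurons and 9 in astrocytes, where 8.58% and 19.3% of all genes were called. The median was 0.69 against 0.01. In the interaction, 22 of 81 were higher and 12 lower (8.24% and 19.1%), with a median of 0.30 against 0.02. Between the IPs, 7 of 8 cortical markers were also called higher in neurons, and 8 of 8 oligodendrocyte, 4 of 4 oligodendrocyte precursor and 6 of 8 interneuron markers lower, and their part in the result was not tested. Both comparisons called 13 genes in the neuronal and 9 in the astrocytic direction. For these and the other counts of genes shared between comparisons, the share over all genes was not worked out.

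The 13 genes in the neuronal direction included 3 Elk- and Eag-type Kv genes (Kcnh1, Kcnh3 and Kcnh4), the β subunits Kcnab2 and Kcnab3, and 3 modifiers (Kcng2, Kcns1 and Kcns2). They further included Kcnip2, Kcnq5, Kcnmb4 and the inward rectifiers Kcnj4 and Kcnj11. Kcnip2 had the largest interaction, 2.35 ± 0.087 on the log2 scale (adjusted p = 2.5e-13), with 87.0, 94.3, 90.6 and 88.0 FPKM in neuron IP against the 27.4 to 32.2 of astrocyte IP. The neuron IPs lay above and the astrocyte IPs below their own inputs. Kcnh3 stood at 46.5, 42.1, 51.5 and 44.0 FPKM in neuron IP and 16.4, 15.5, 15.8 and 15.9 in astrocyte IP, a difference of 1.53 ± 0.063 between IPs and 1.92 ± 0.092 in the interaction. Kcnj4 stood at 46.4, 47.6, 44.0 and 45.7 in neuron IP, for a difference of 1.29 ± 0.037 and an interaction of 1.91 ± 0.063 (adjusted p = 6.3e-14). Kcnq5 differed by 1.23 ± 0.035 with an interaction of 1.44 ± 0.055, and Kcnh4, at the limit between IPs (1.00 ± 0.081), had an interaction of 1.79 ± 0.14. In each of these genes the neuron IP libraries were all above the astrocyte IP libraries.

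The 9 genes in the astrocytic direction were Kcne1l, Kcnj14, Kcnk10, Kcnk5, Kcnmb1, the 3 Ca2+-activated genes Kcnn2, Kcnn3 and Kcnn4, and Kcnq1ot1. In astrocyte IP over input, Kcne1l, Kcnj14, Kcnk10 and Kcnmb1 were called higher, Kcnk5 and the 3 Kcnn genes were not called, and Kcnq1ot1 was called lower. Kcnk5 was at 0.213 to 0.360 FPKM in astrocyte-cohort inputs and at 0.117 to 0.201 in the IPs. Kcnn4 was also low, at 0.334 to 0.627 FPKM in astrocyte IP and 0.0418 to 0.156 in neuron IP. Kcne1l stood at 5.40, 6.07, 4.42 and 7.22 FPKM in neuron IP, overlapping its inputs of 4.22 to 6.17, and its difference was -2.44 ± 0.14 between IPs and -2.32 ± 0.20 in the interaction (adjusted p = 2e-08). Kcne1l is X-linked, and its inputs in the 2 cohorts overlapped (log2 fold change -0.08 ± 0.13). Kcnj14 was at 0.283 to 0.368 FPKM in neuron IP, with an interaction of -2.68 ± 0.18, and Kcnk10 at 0.399 to 0.482 with -2.04 ± 0.13. Kcnn2 was at 7.85, 8.42, 7.71 and 6.64 FPKM in astrocyte IP and 3.43, 3.05, 3.36 and 3.15 in neuron IP, a difference of -1.24 ± 0.078, and Kcnn3 at 10.7 to 11.7 and 4.25 to 5.04, a difference of -1.31 ± 0.055. So 2 of the 3 SK genes were higher in the astrocyte IP, while Kcnn1 was at 0.72 ± 0.097 in the neuronal direction, under the limit.

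Genes called in 1 of the 2 comparisons fell into distinct sets. The interaction alone called 9 genes higher, among them Kcna4, Kcna5, Kcnab1, Kcnd2, Kcnj2, Kcnk2, Kcnk6 and Kcnt1. For Kcnab1, neuron IP exceeded astrocyte IP by 0.82 ± 0.089 but neuron-cohort input stood at -0.76 ± 0.089 relative to astrocyte-cohort input, and the interaction was 1.63 ± 0.14. The mechanosensitive K2P gene Kcnk2 (TREK-1) showed the same order, with 0.30 ± 0.064, -0.71 ± 0.054 and 1.05 ± 0.086. Hence the TREK genes Kcnk2 and Kcnk10 lay on opposite sides of the interaction. Kcnk9 and Kcng4 were called lower by the interaction alone. For Kcnk9 the IPs overlapped (1.84 to 2.16 FPKM in astrocyte IP, 1.53 to 1.97 in neuron IP) while its inputs were 0.474 to 0.539 and 1.42 to 1.79. Kcnj13 was also called lower by the interaction, but had too few counts to be tested between the IPs. Its astrocyte-cohort libraries held 0 to 5 counts.

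**Figure D3:**
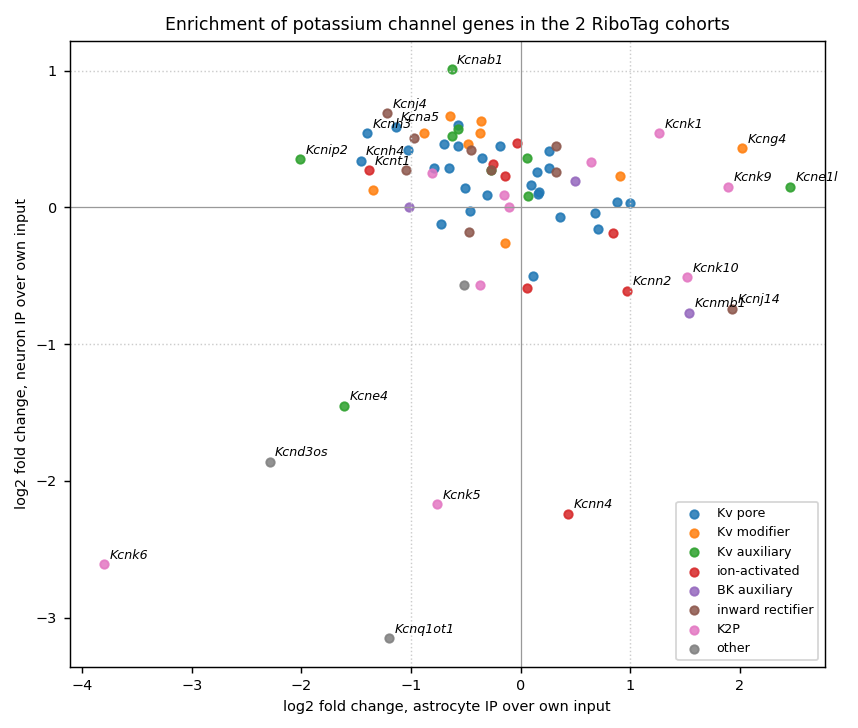
Log2 fold change of IP over own input in the astrocyte cohort (x axis) and in the neuron cohort (y axis), 1 point per potassium channel gene tested in both, coloured by class, with dotted lines at -1 and 1. Kcnip2, Kcnh3 and Kcnj4 lie at the upper left, Kcne1l, Kcnk10 and Kcnj14 at the right, and Kcnk6, Kcnd3os and Kcne4 at the lower left.

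The remaining 12 genes were higher in neuron IP than in astrocyte IP without a call in the interaction, and 6 of them, Kcnj3, Kcnj6, Kcnj9, Kcnk4, Kcnh7 and Kcnc2, were also called higher in neuron-cohort input than in astrocyte-cohort input. Between these inputs 14 of 80 potassium channel genes were called higher and 0 lower, where 5.16% and 2.57% of all genes were called. The 0 came from edgeR's quasi-likelihood test, limma-voom and DESeq2 alike, and 17 genes lay lower at adjusted p under 0.05 without the fold limit, 60 having an unadjusted p under 0.05 in either direction. The 3 GIRK genes, which carry slow inhibitory currents of G-protein-coupled receptors, were among the 14. Kcnj3 (GIRK1) stood at 1.52, 1.47, 1.49 and 1.60 FPKM in astrocyte-cohort inputs and 5.68, 4.20, 6.23 and 5.17 in neuron-cohort inputs, a log2 fold change of 1.79 ± 0.11 (adjusted p = 1.3e-07). Kcnj6 was at 2.05 ± 0.13 and Kcnj9 at 1.25 ± 0.090. Kcnk4 stood at 0.276, 0.261, 0.260 and 0.296 FPKM in astrocyte-cohort inputs and 1.84, 0.915, 1.68 and 1.18 in neuron-cohort inputs (2.35 ± 0.24), with no overlap.

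All 8 cortical markers were called higher in the same comparison of inputs. Over the input and bulk libraries, the 5 with the lowest marker sums among the RiboTag cohorts, the 4 astrocyte-cohort inputs and SAPAP3-cohort WT input 1, had 1.47 to 1.64 FPKM of Kcnj3, while the other inputs had 4.20 to 6.63. Bulk WT 2 and 3, with marker sums of 279 and 236 CPM, had 3.05 and 2.43 FPKM of Kcnj3, and bulk WT 1 and 4, with 1103.4 and 901, had 5.76 and 5.83. Kcnip2 showed the reverse order, at 112 to 119 FPKM in astrocyte-cohort inputs, 89.7 in SAPAP3-cohort WT input 1 and 57.7 to 60.8 in the other WT inputs. How far dissection, cohort and sex enter these values cannot be told apart here.

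**Figure D4:**
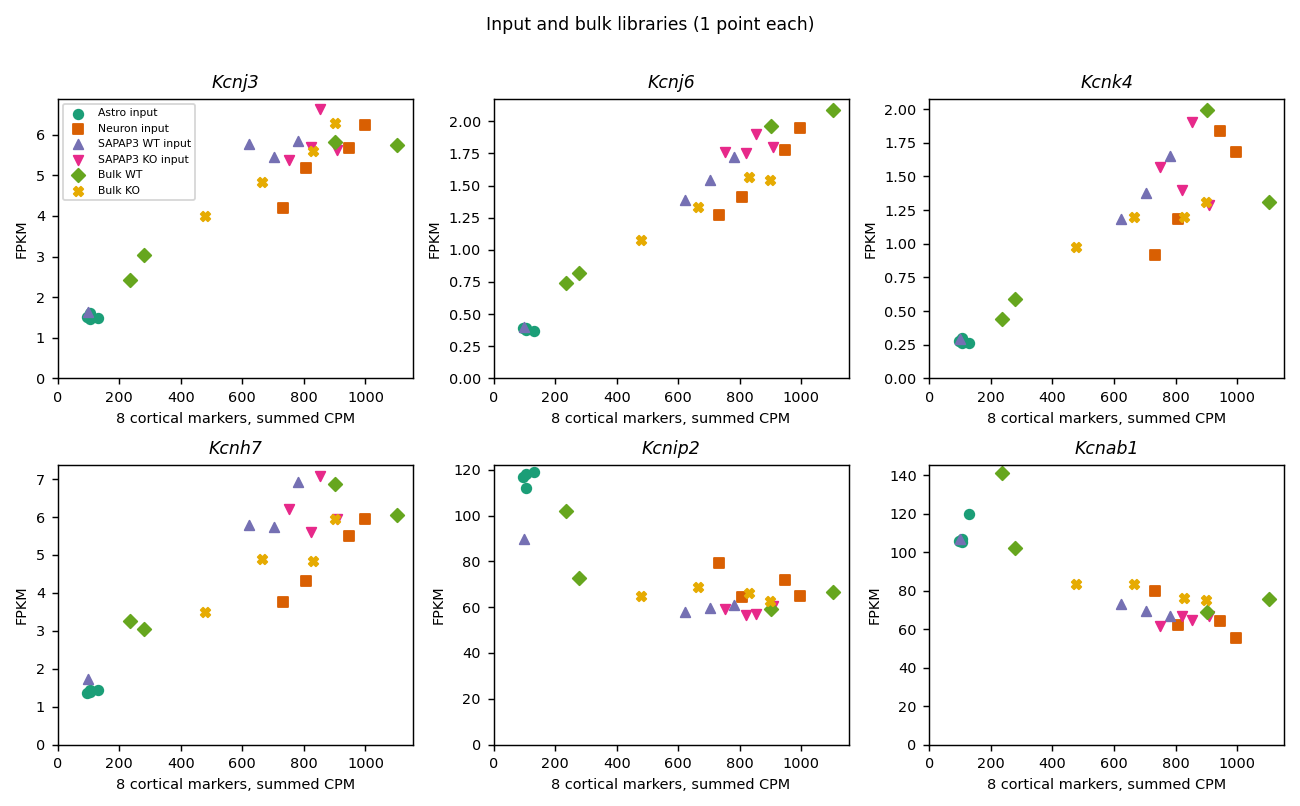
Level in FPKM (y axis, from 0) of 6 potassium channel genes against the summed CPM of 8 cortical excitatory markers (x axis, from 0) in the input and bulk libraries, 1 point per library, with group given by colour and shape. Kcnj3, Kcnj6, Kcnk4 and Kcnh7 are lowest, and Kcnip2 and Kcnab1 highest, in the libraries with few cortical markers.

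The WT enrichment of the SAPAP3 cohort was set against that of the astrocyte cohort, a comparison added after the data were seen. It called 1 of 79 genes higher and 5 lower (0.99% and 1.81% of all genes). Kcnk13, the K2P gene THIK-1 of microglia, was the one called higher (1.04 ± 0.28, adjusted p = 0.016), with 5.56, 5.46, 3.49 and 7.01 FPKM in SAPAP3-cohort WT IPs and 2.03, 1.77, 3.09 and 3.16 in astrocyte IPs. The IP groups were apart, and 3 of 8 microglial and 2 of 8 oligodendrocyte markers were called higher in the same comparison. In WT IP over input, however, 8 of 8 microglial markers were called lower (29.7 to 58.3 CPM against 564 to 1158). Kcnk13 was not called there, with inputs of 3.03 to 3.96 FPKM, and the part of these cell types was not tested. The genes called lower against the astrocyte cohort were Kcnk9 (-1.44 ± 0.23), Kcnj3 (-1.38 ± 0.39), Kcnc4 (-1.16 ± 0.32), the modifier Kcns3 and Kcnt2 (-1.10 ± 0.29), and 5 of 8 cortical markers were called lower with them. Without SAPAP3-cohort WT replicate 1 the number called lower was 11 of 79, where 403 of all 15877 genes were called lower. Kcnj3 did not pass by limma-voom (-1.25, adjusted p = 0.067), and Kcnk13 fell under the fold limit (0.89 to 1.00) without astrocyte IP 1 or 2, SAPAP3-cohort WT input 2 or WT IP 4. Without WT input 2, Kcns3 (adjusted p = 0.053) and Kcnt2 (-0.96) were not called, and without astrocyte input 3 Kcns3 was not (adjusted p = 0.051).

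Finally, SAPAP3 KO was compared with WT to ask whether loss of the scaffold was accompanied by changes in potassium channel RNA. Dlgap3 itself was at 228 to 377 CPM in bulk WT and 136 to 157 in bulk KO, and the groups were apart, though its log2 fold change of -1.14 ± 0.14 did not pass adjustment (adjusted p = 0.32). It was called lower in the input (-1.19 ± 0.10, adjusted p = 0.0069) and IP (-1.40 ± 0.17, adjusted p = 0.028) of the SAPAP3 cohort. By Xist and Ddx3y the KO bulk libraries were alike (Xist at most 0.0319 CPM, Ddx3y 98.0 to 102), whereas bulk WT reached 194 CPM of Xist with Ddx3y down to 1.13, and each SAPAP3-cohort group was also mixed. The part of sex in the genotype values was not tested. No potassium channel gene passed in any genotype comparison by edgeR's quasi-likelihood test, DESeq2 or limma-voom. Over all genes, 0.0% were called in bulk, 0.0064% lower in input, and 0.00654% higher and 0.0196% lower in IP. The interaction of genotype and fraction called 0 of 80, none of which had an unadjusted p under 0.05.

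An unadjusted p under 0.05 was found for 795 of all 16078 genes in bulk, 874 of 15632 in SAPAP3-cohort input and 405 of 15281 in IP. In bulk striatum, 3 of 79 potassium channel genes had one by edgeR (3 by DESeq2 and 3 by limma-voom), the smallest being that of Kcnk1. Its level was 33.5, 31.4, 38.0 and 32.4 FPKM in WT and 28.1, 29.2, 30.3 and 30.8 in KO. Every KO library was below every WT library, with a log2 fold change of -0.19 ± 0.068 (edgeR quasi-likelihood test, adjusted p = 0.98). The modifier Kcng1 (-0.40 ± 0.15) and the inward rectifier Kcnj12 (Kir2.2; -0.16 ± 0.063) followed. Without WT 1 or without KO 1, which share an animal label, 3 and 2 genes had an unadjusted p under 0.05. In SAPAP3-cohort input 2 of 79 had an unadjusted p under 0.05 (7 by DESeq2 and 3 by limma-voom), the modifiers Kcng2 (0.50 ± 0.18) and Kcnf1 (0.29 ± 0.12), and Kcnmb4 (0.28 ± 0.13) came next. Neither Kcnk1 (0.05 ± 0.066) nor Kcnj12 (0.01 ± 0.087) was lower there, and both had overlapping groups. In the IP, 3 of 77 had an unadjusted p under 0.05 (4 by DESeq2 and 2 by limma-voom), the GIRK genes Kcnj6 (0.73 ± 0.29) and Kcnj3 (0.38 ± 0.15) and the inward rectifier Kcnj2 (-0.41 ± 0.17). Kcnj3 stood at 1.65, 2.52, 2.63 and 2.30 FPKM in WT IPs and 3.39, 3.08, 2.30 and 2.99 in KO IPs, so the groups overlapped, and without WT replicate 1 no potassium channel gene of the IP had an unadjusted p under 0.05. With the replicate number as a block, 12 had one and 0 passed adjustment.

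The size of differences that could have been seen was set by the error. The median SE of the log2 fold change was 0.16 in bulk, 0.14 in input and 0.15 in IP, and the fold changes lay between -0.40 and 0.39 in bulk, -0.30 and 0.51 in input, and -0.81 and 0.73 in IP. Genes called higher in the astrocyte-marker-rich IPs had KO over WT log2 fold changes of -0.07 ± 0.18 for Kcne1l, -0.03 ± 0.20 for Kcnj14 and 0.05 ± 0.15 for Kcnk10 in IP.

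**Figure D5:**
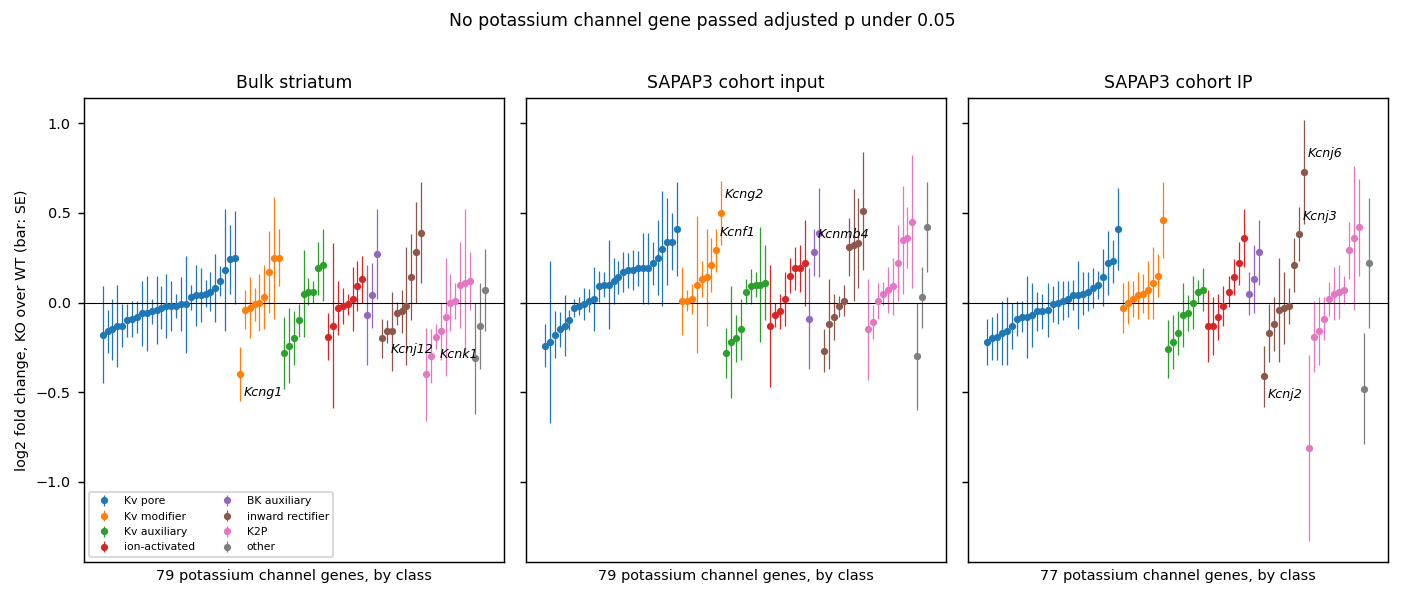
Log2 fold change of KO over WT with its SE (y axis) for each potassium channel gene tested, ordered by class (x axis), in bulk striatum, SAPAP3-cohort input and SAPAP3-cohort IP. The 3 genes with the smallest p are named in each panel, and no gene passed adjustment.

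Channel complexes also hold subunits not named Kcn, and 14 of 16 listed genes of this kind could be tested. Hcn4, a pacemaker cation channel, was called higher (1.76 ± 0.080) and Abcc9, the SUR2 partner of ATP-sensitive channels, lower (-1.26 ± 0.098) in astrocyte IP over input, and both were called in the same direction in the SAPAP3-cohort IPs. None of the 14 was called in neuron IP over input. Between the IPs Abcc8, the SUR1 partner of Kcnj11 (1.15 ± 0.11), and Dpp10, an auxiliary subunit of Kv4 channels (1.11 ± 0.060), were among the genes higher in neurons and Hcn4 (-1.42 ± 0.11) in astrocytes. Abcc8 and Kcnj11 (1.13 ± 0.062), which together form the neuronal type of ATP-sensitive channel, were both called between the IPs. In the interaction Kcnj11 was called (1.30 ± 0.087), whereas Abcc8 (1.00 ± 0.14) and Dpp10 (0.52 ± 0.075) did not pass the fold limit.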

How the data were processed

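RNA was sequenced from 40 mouse striatal libraries. The authors aligned reads to mm10 with STAR and counted them per gene with HTSeq, and the deposited values are raw counts; versions and the strand setting are not given in the sources used here, and the library kit is named differently by the labels and the methods. Genes with 10 or more counts in at least 4 libraries of a fit were tested with edgeR 4.0.16 (quasi-likelihood, TMM) in R 4.3.3, with Benjamini-Hochberg adjustment over all genes. Calls needed adjusted p under 0.05 and, except for genotype, a log2 fold change past 1; ± after a fold change is its SE. FPKM used merged exon lengths of RefSeq GRCm38.p6, matched for 23875 of 24058 symbols. limma-voom, DESeq2, other scalings and filters, a replicate block and leaving out libraries were alternatives. Apart from the animal label shared by bulk WT 1 and bulk KO 1, libraries of a group carry separate labels, and p-values measure only the spread between them. Same-numbered inputs and IPs deviated together (r from 0.28 to 0.80 in the 4 cohorts' pairs), although the neuron cohort's labels name different animals. Members and lists were chosen with earlier results of these data known. Genes named are those called, members of the role lists and those with the smallest genotype p. Scripts were tested on simulated data. Some genes are not reported here.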

Additional observations from a re-analysis of the deposited data

Results flagged for a closer look

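Among 290 groups of 4 libraries over 29 genes, 20 held a library set apart from the other three by the gap test, 6.9%, where chance gives about 1 in 20. SAPAP3-cohort WT input 1 stood apart for Kcnip2 (89.7 FPKM), Kcnab1 (107), Kcnj4 (35.2), Kcnh4 (5.97), Kcnk13 (3.96), Kcnn2 (4.54) and Kcnj3 (1.64), and WT IP 1 for Kcnip2 (28.1) and Kcnj4 (19.1). For Kcnj3 the other WT inputs were at 5.46 to 5.85 FPKM, and the summed cortical markers of WT input 1 were 98.0 CPM against 622 to 781. In the astrocyte cohort, input 3 stood apart for Kcnab1 (120) and Kcnd2 (61.6), input 1 for Kcne4 (0.625) and Kcnk13 (2.90), and IP 2 for Kcnk9 (2.16) and Kcng4 (3.21). Bulk KO 4 stood apart for Kcnj4 (25.0), Kcnk13 (4.02) and Kcng4 (3.40), neuron-cohort input 2 for Kcnd2 (48.3) and SAPAP3-cohort KO IP 1 for Kcnt1 (11.5).

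IP enrichment differed between the neuron and astrocyte cohorts in the interaction test for the following log2 values, positive where neuron enrichment was higher. They were 2.35 for Kcnip2, 1.92 for Kcnh3, 1.91 for Kcnj4, 1.79 for Kcnh4, 1.72 for Kcna5, 1.64 for Kcnt1, 1.63 for Kcnab1 and 1.48 for Kcng2. Below 0 were Kcnj14 and Kcnn4 (both -2.68), Kcnmb1 and Kcne1l (both -2.32), Kcnk10 (-2.04), Kcnq1ot1 (-1.96), Kcnk9 (-1.75) and Kcng4 (-1.59). Between SAPAP3-cohort WT and astrocyte enrichment the tested differences were 1.04 for Kcnk13, -1.44 for Kcnk9, -1.38 for Kcnj3, -1.16 for Kcnc4 and for Kcns3, and -1.10 for Kcnt2.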

How the results depend on the processing

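No value reversed, and over all alternatives 16694 results for single genes kept their side of the threshold, 126 newly passed it and 101 no longer passed. Restricting tests to genes above 5 FPKM left fewer genes. In astrocyte IP over input 2 of 36 were higher (1005 of 8786 over all genes). In neuron IP 0 of 43 were higher and 0 lower (3 and 504 of 8404). In SAPAP3-cohort WT IP 1 of 39 was higher and 7 lower (822 and 448 of 8667), and in KO IP 1 of 42 was higher (938 of 8692). Between the IPs 16 of 38 were higher and 3 lower (448 and 1376 of 8415), and between the inputs 4 of 39 were higher (235 of 8701). In the interaction 14 of 44 were higher and 3 lower (591 and 1439 of 9191). In SAPAP3-cohort WT against astrocyte enrichment 0 of 40 were higher and 0 lower (37 and 99 of 9247). Scaling by library totals moved the median of all genes in IP over input to -0.24 to -0.20. It gave 25 lower in each SAPAP3-cohort IP, of 79 in WT and 78 in KO (2412 of 15606 and 2425 of 15578 over all genes). In neuron IP 0 of 80 were then higher (18 of 16168), and in SAPAP3-cohort WT against astrocyte enrichment 2 of 79 (182 of 15955). No filter gave 2 of 93 higher in neuron IP (99 of 20244). The cause was not tested. With the replicate block, 10 rather than 5 genes were lower in SAPAP3-cohort WT against astrocyte enrichment (362 rather than 288 of all 15955). Kcnj3, Kcnj9 and Kcnt2 (SAPAP3-cohort WT IP) and Kcnh4 (between IPs) then fell under the fold limit, and no other count of called genes moved by over 1.5 times. Genes with an unadjusted p under 0.05 in KO over WT IP went from 3 to 12 under the block. Between the genotypes 3 of 4 same-numbered IP pairs (r from -0.05 to 0.41) and 2 of 4 input pairs (-0.15 to 0.57) correlated over 0.1, with 3 and 2 of 4 best with their own number, so the labels' numbers were not taken as pairs. Leaving out 1 library at a time gave 0 to 1 higher in neuron IP, 0 to 1 lower between the inputs, and 0 to 2 higher and 3 to 11 lower in SAPAP3-cohort WT against astrocyte enrichment.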
